A study of Danio rerio with 9 samples.

Results

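The genes measured here encode the motor and the switch of the muscle filament: the myosin heavy and light chains, the troponins C, I and T and the tropomyosins. Members were all array probes whose accession belongs to a RefSeq gene symbol that begins with myh, myl, tnni, tnnt, tnnc or tpm. They came to 56 genes read by 115 probes, of 13443 named genes and 43603 probes in all. Of the 56, 43 belong to the sarcomere: 17 of fast skeletal muscle, 11 of slow skeletal muscle, 10 of the heart and 5 that were given no fibre class. The other 13 share only the prefix and are non-muscle or smooth muscle myosins, enzymes or kinases. A further 22 of the 78 RefSeq genes with these prefixes had no matching probe and were not analysed here.

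RNA came from the whole body of zebrafish larvae at 6 dpf, and 1 Agilent 1-colour array was hybridised for each of 9 conditions. WT, zPer2/zCry1a double knockout (DKO) and zPer2/zCry1a/zCry2a triple knockout (TKO) larvae had been raised in constant darkness and were then kept in darkness or given 3-h light or 12-h light. Larvae were sampled 12 h after the onset of light, and larvae of the 3-h group had spent the remaining hours in the dark. DKO and TKO larvae both carry homozygous zPer2 and zCry1a mutations made with TALENs, and TKO larvae also carry a homozygous zCry2a mutation made with CRISPR-Cas9. The knockouts act in the whole animal and not in muscle alone. The number of larvae behind an array is not given in the sources used here. The study used the arrays to ask which genes follow light and genotype in larvae whose behavioral rhythms and activity differ.

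In a sarcomere, myosin heavy chains pull on actin filaments, and the light chains bound to each heavy chain stiffen and tune its lever arm. Tropomyosin lies along the actin filament and covers the sites where myosin binds. The troponin complex moves it: troponin C takes up calcium, troponin I holds the filament off at rest and troponin T ties the complex to tropomyosin. Fast, slow and cardiac muscle use different gene copies of each subunit, and teleosts hold many extra copies of them. In a whole larva most of this RNA comes from the trunk muscle and a small part from the heart.

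Levels are log2 signals minus the 75th percentile of the array, averaged over the probes of a gene, so a difference of 1 is 2-fold. They describe 1 gene across arrays and do not rank genes against each other. Duplicate spots of a probe on 1 array gave an SD of 0.20 for a difference of log2 values, which covers spot error and no difference between larvae. All sarcomere members were well above background on all 9 arrays. Only tnni3k, a kinase that binds cardiac troponin I in mammals, was above background on 0 arrays, and 55 members were tested. Of the marker genes, 8 of 9 for skeletal muscle and 6 of 8 for the heart were matched to a probe and detected. The remaining muscle marker, neb, had no matching probe and was not measured. Markers of other tissues were detected as well, such as 7 of 7 for liver, so detection does not show which tissue gave the RNA. In bulk RNA, fewer cells of a type and less RNA per cell cannot be told apart. The 3 arrays of a genotype shared 1 slide and 1 scan date, so genotype cannot be told apart from slide or scan. Lighting went with the position on the slide: 1 for darkness, 2 for 3-h light and 3 (4 in DKO) for 12-h light.

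One array, that of the TKO larvae in darkness (TKO dark), stood apart from the others. It held the lowest level of the 9 arrays for 41.4% of 28126 features and the highest for 21.8%. Of the 43 sarcomere members, 27 had their highest level and 8 their lowest on this array. Results of the fits across arrays are given with and without it where it changed them. Transcripts of the knocked-out genes were still detected in the mutants: zCry1a read -0.15 in WT, -1.21 in DKO and -1.32 in TKO larvae in darkness, and zCry2a (cry3a in RefSeq) -0.29, -0.36 and -1.15. A nonsense mutation need not remove the RNA, so these values do not check the genotypes.

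**Figure D1:**
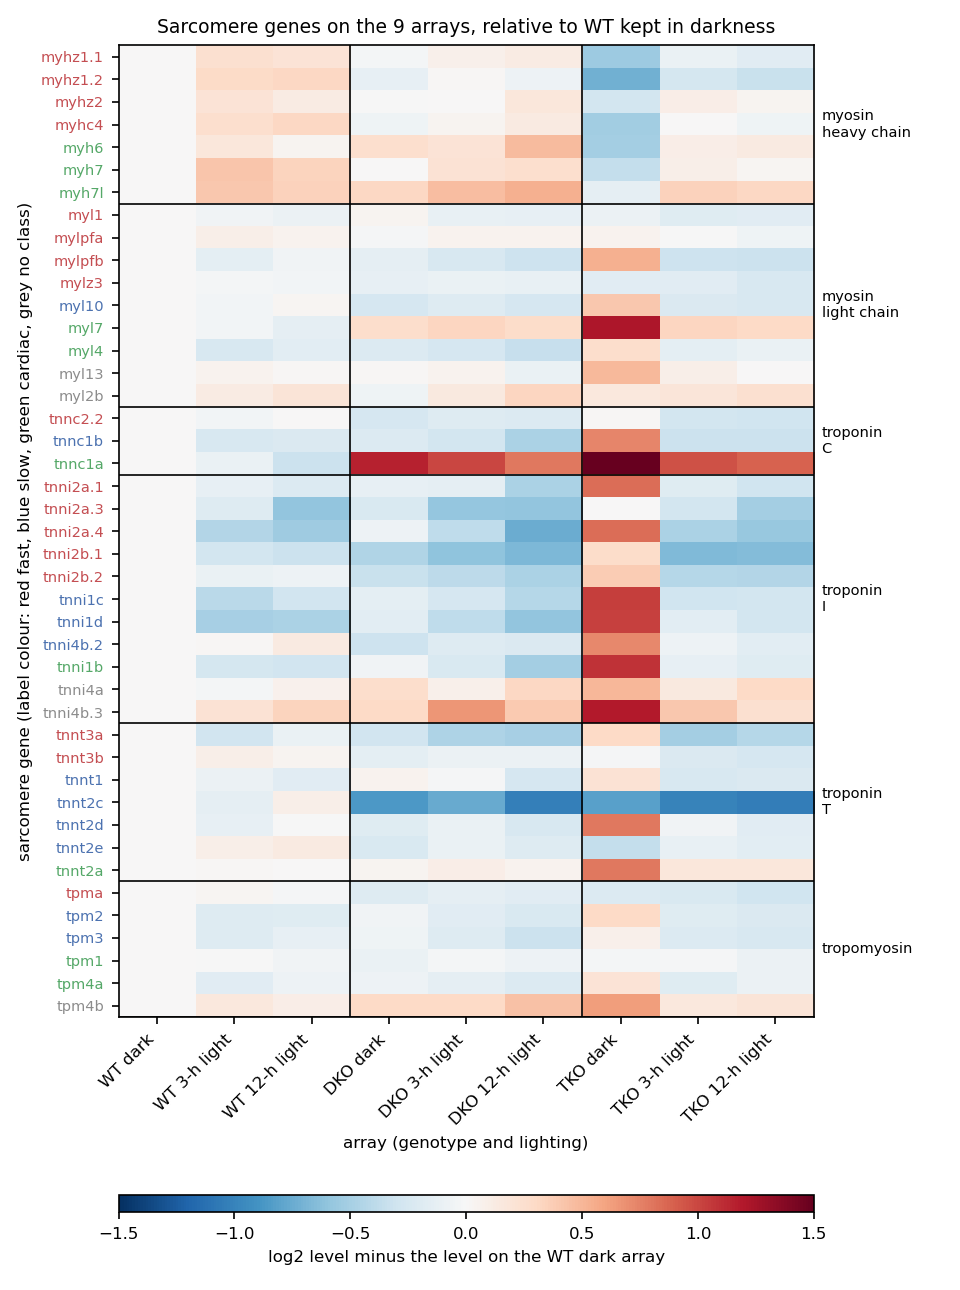
Log2 level of each of the 43 sarcomere members (rows, grouped by role and coloured by fibre class) on each of the 9 arrays (columns), minus its level on the WT dark array; each cell is 1 array. All 7 heavy chains are blue on the TKO dark array and all 11 troponin I genes are red or at 0 there, whereas the rows of tnnc1a (red) and tnnt2c (blue) differ from WT on all 6 mutant arrays.

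On the TKO dark array the sarcomere genes parted by role. All 7 heavy chains were lower there than on the WT dark array, with a median difference of -0.51, whereas all 11 troponin I genes were higher, with a median of 0.83. The median over all features was -0.11. Against the DKO dark array the medians were -0.46 for the heavy chains (7 of 7 below 0) and 0.92 for troponin I (11 of 11 above 0). Between DKO and WT in darkness the same medians were -0.01 and -0.15. Both directions occurred within the fast and within the cardiac list, whose medians against WT dark were 0.00 and 0.23. The plan compared the fast, slow and cardiac lists, and a grouping by role was not part of it.

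Among heavy chains the fast genes carry most of the trunk's force. myhz1.2, a fast myosin heavy chain, read 4.31, 4.60 and 4.62 in WT larvae in darkness, 3-h light and 12-h light. It read 4.18, 4.32 and 4.23 in DKO and 3.58, 4.05 and 3.98 in TKO larvae. The 3 TKO arrays were therefore the 3 lowest and the TKO dark array the lowest of all. Its close copy myhz1.1 read 6.65, 6.90 and 6.85 in WT, 6.62, 6.73 and 6.77 in DKO and 6.10, 6.56 and 6.48 in TKO larvae. Here the 3 TKO arrays were again below the other 6. The 6 probes of myhz1.1 were all lower on the TKO dark than on the WT dark array, by values from -0.72 to -0.11. The myhz1 copies are near-identical in sequence, so signal may be shared between them.

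The cardiac heavy chains also had their lowest level on the TKO dark array. myh6, the atrial heavy chain, read -1.58, -1.34 and -2.10 in WT, DKO and TKO larvae in darkness. myh7, the ventricular heavy chain, read 0.79, 0.80 and 0.43. The lit arrays of myh7 lay higher, at 1.21 and 1.13 in WT, 1.01 and 1.04 in DKO and 0.88 and 0.83 in TKO larvae. The non-muscle and smooth muscle heavy chains myh9a and myh11a, which are not part of the sarcomere, also had their lowest level on the TKO dark array (-0.46 and -0.37, against 0.10 and 0.14 in WT).

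Troponin I showed the opposite. tnni1c, a slow troponin I, read 2.31, 1.90 and 2.03 in WT, 2.16, 2.05 and 1.89 in DKO and 3.35, 2.01 and 2.03 in TKO larvae. tnni1b, the copy of the heart, read -0.84, -1.10 and -1.12 in WT, -0.88, -1.06 and -1.35 in DKO and 0.24, -0.96 and -1.01 in TKO larvae. In both genes the TKO dark array alone was high and the other 8 lay within 0.42 and 0.51 of each other. tnni1d and tnni4b.3 were 1.02 and 1.19 higher on the TKO dark than on the WT dark array. The fast copies tnni2a.1, tnni2a.4, tnni2b.1 and tnni2b.2 were also highest there, while tnni2a.3 read -2.09 on both arrays.

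The medians of the remaining subunits lay between those of these 2 roles. All 3 troponin C genes were higher on the TKO dark than on the WT dark array (median 0.74). Light chains were higher in 7 of 9 genes (median 0.26), troponin T in 4 of 7 (0.21) and tropomyosin in 4 of 6 (0.14). The largest difference among the light chains was in myl7, the cardiac regulatory light chain, which read 1.06, 1.03 and 0.94 in WT, 1.33, 1.39 and 1.34 in DKO and 2.27, 1.39 and 1.36 in TKO larvae. All 6 mutant arrays of myl7 were above all 3 WT arrays. tnnt2a, the cardiac troponin T whose loss silences the zebrafish heart, read 1.72 on the TKO dark array, 0.92, 0.94 and 0.93 on the WT arrays, 0.96, 1.03 and 0.97 on the DKO arrays and 1.1 and 1.09 on the lit TKO arrays. By contrast tpm1, which encodes a striated muscle tropomyosin, lay within 0.10 on all 9 arrays and mylpfa, the main fast regulatory light chain, within 0.16. These gene values average probes that did not move alike: for TKO dark minus WT dark the 4 probes of tpm1 ran from -0.31 to 0.27 and the 3 of mylpfa from -0.19 to 0.30. The non-sarcomeric light chain myl6 read 2.80 on the TKO dark array against 1.71 in WT, so high light chain values on this array were not limited to sarcomere genes.

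Slow troponins C and T did not all lie on one side. tnnc1b, the slow troponin C, read 2.87, 2.62 and 2.65 in WT, 2.66, 2.59 and 2.39 in DKO and 3.60, 2.55 and 2.54 in TKO larvae. tnnt2d, a slow troponin T, read 3.01, 2.88 and 3.00 in WT, 2.82, 2.91 and 2.77 in DKO and 3.80, 2.96 and 2.84 in TKO larvae. Both were high on the TKO dark array alone. The slow tropomyosins tpm2 and tpm3 had their highest level there too, at 6.23 and 0.65, against 5.93 and 0.58 on the WT dark array. The slow troponin T genes tnnt2c and tnnt2e were lower there than in WT larvae.

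Among fast light chains 1 gene stood out. mylpfb, a fast regulatory light chain, read 8.11 on the TKO dark array and between 7.26 and 7.58 on the others. Its partner genes myl1 and mylz3, the fast essential light chains, lay between 4.87 and 5.09 and between 6.47 and 6.71 on all 9 arrays. The fast tropomyosin tpma lay between 6.57 and 6.90. Of the 5 members without a class, myl13 read 6.82 and tpm4b 1.42 on the TKO dark array, each the highest of its 9 values.

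**Figure D2:**
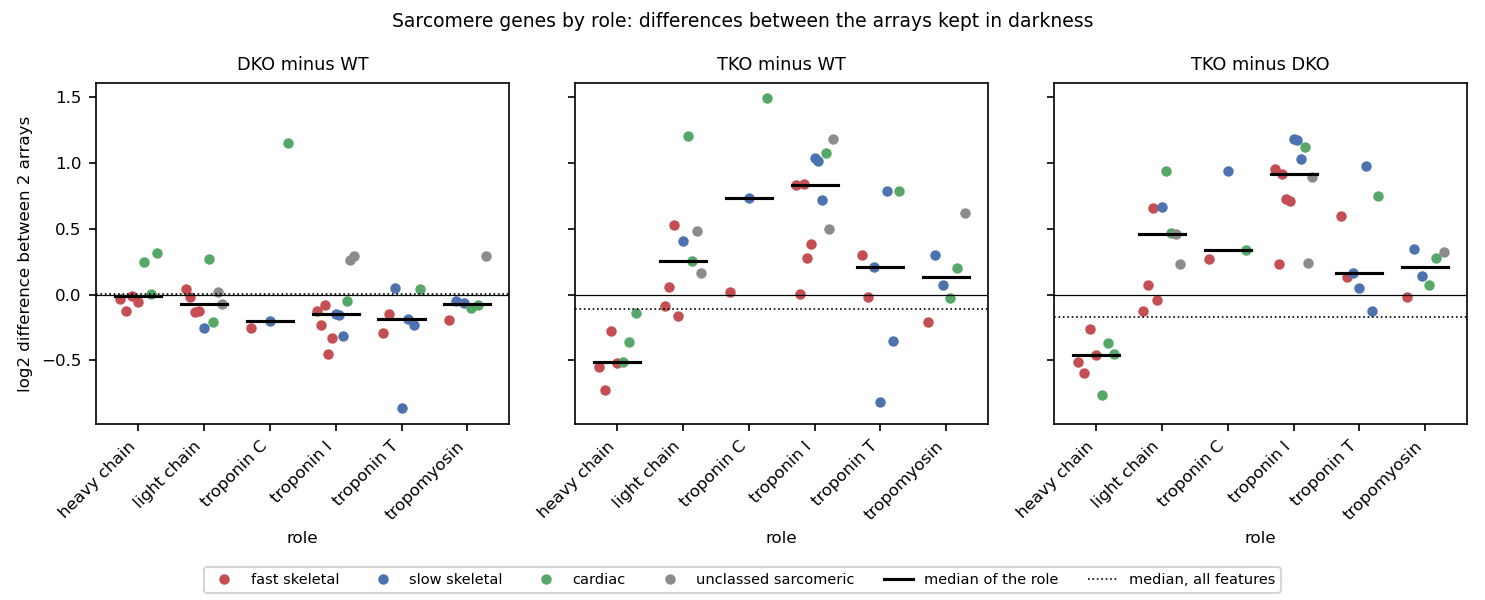
Log2 difference between 2 arrays of larvae kept in darkness (y) for each sarcomere member (points, 1 array each side, coloured by fibre class), by role (x), for DKO minus WT, TKO minus WT and TKO minus DKO; the bar is the median of the role and the dotted line the median of all features. Heavy chains lie below 0 and troponin I genes above it in both panels with TKO (medians -0.51 and 0.83 against WT), and the roles overlap in the DKO panel.

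Genes outside the members also differed on this array. The 80 cytosolic ribosomal protein genes were higher on the TKO dark than on the WT dark array in 76 cases, with a median of 0.55, and than on the DKO dark array in 77. Of 43 other contractile genes tested, such as actins, myosin-binding proteins and calcium pumps, 13 were higher and the median was -0.17. Of 14 summed marker lists of tissues, 8 were above the range of the other 8 arrays on this array, 1 (skin) was below it and 5 lay within it. The 8 were those of neurons, glia, retina, liver, gut, red blood cells, white blood cells and heart. A sum follows its brightest genes, and the median gene did not always go with it. For TKO dark minus WT dark that median was -0.30 for neurons (1 of 5 genes above 0) and -0.20 for retina (1 of 5). It was -0.41 for white blood cells (1 of 5) and -0.11 for glia (1 of 3). For gut, heart, red blood cells and liver it was above 0, at 0.43, 0.40, 0.21 and 0.08. The sum was 6.68 against 4.95 to 5.72 for glia, 7.47 against 5.79 to 6.61 for gut and 3.40 against 2.28 to 2.68 for the heart, whose list includes the members myl7 and myh6. The summed skeletal muscle markers read 10.30 against 10.28 to 10.49. The part of these genes' differences in the split by role was not tested.

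With 2-fold as the threshold and no test, since each side was 1 array, 7 members were higher and 0 lower on the TKO dark than on the WT dark array, beside 7.07% of all features higher and 2.53% lower. The 7 were tnni1c, tnni1d, tnni1b, tnni4b.3, myl7, tnnc1a and myl6. Against DKO dark 5 were higher (tnni1c, tnni1d, tnni4b.2, tnni1b and myl6), beside 5.38% of features, and 0 lower, beside 1.79%. Between DKO and WT in darkness tnnc1a alone was higher, beside 3.14%, and 0 were lower, beside 1.23%. On the lit arrays 2-fold differences from WT came from tnnc1a, tnnt2c and mylipb. After 3-h light tnnc1a alone was higher in DKO larvae, beside 3.29% of features (1.03% lower), and in TKO larvae, beside 2.89% (1.28% lower). After 12-h light tnnc1a and mylipb were higher in DKO larvae, beside 3.94%, and tnnt2c lower, beside 1.67%. In TKO larvae tnnc1a was then higher, beside 3.18%, and tnnt2c lower, beside 1.61%. Between the lit TKO and DKO arrays 0 members reached 2-fold, beside 1.65% of features after 3-h and 1.92% after 12-h light.

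For the test across arrays, an additive limma model with terms for genotype and lighting was fitted to all 28126 features. It takes the 3 lightings of a genotype as its replicates, and p-values measure the spread of these arrays around that model. Between DKO and WT 1 member rose and 1 fell out of 55, beside 7.98% of features higher and 3.49% lower. Between TKO and WT 2 rose and 6 fell, beside 8.93% higher and 11.5% lower (20.4% either way). Between TKO and DKO 0 members passed the test in limma, beside 0.459% of features higher and 0.658% lower, and 7 (12.7%) had an unadjusted p under 0.05, beside 19.6% of features. The members that passed in both mutants were tnnc1a and tnnt2c. The TKO count was 13 without TKO dark, 7 without DKO dark and 3 or 4 without any other array, and the DKO count was 14 without TKO dark and 2 without any other. Without TKO dark these counts were 23.6% of the members in TKO, beside 21.3% of features either way, and 25.5% in DKO larvae, beside 22.4%. tnnc1a and tnnt2c in both mutants and myhz1.2 in TKO larvae passed whichever array was left out.

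tnnc1a, which encodes the troponin C of heart and slow muscle, rose in both mutants. It read -2.07, -2.16 and -2.39 in WT larvae in darkness, 3-h light and 12-h light. It read -0.92, -1.06 and -1.28 in DKO and -0.58, -1.11 and -1.19 in TKO larvae, so that all 6 mutant arrays were above all 3 WT arrays. The log2 difference was 1.12 (SE 0.104, adjusted p = 0.00167) in DKO and 1.25 (SE 0.104, adjusted p = 0.00133) in TKO larvae, or 2.17-fold and 2.37-fold. It was the 1 member that was at least 2-fold higher than WT in both mutants and under all 3 lightings. Without the TKO dark array the TKO difference was 1.13 (SE 0.065, adjusted p = 0.002).

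Both probes of tnnc1a moved the same way but by different amounts. The brighter probe differed by 1.57 in DKO and 1.92 in TKO larvae (adjusted p = 0.0026 and 0.0014 in the limma fit of single probes). The dimmer probe differed by 0.67 and 0.58 (adjusted p = 0.0035 and 0.0056). Averaging over probes therefore gives a value between the 2. The slow partner gene tnnc1b read 2.87 in WT and 2.66 in DKO larvae in darkness and the fast gene tnnc2.2 read 7.03 and 6.78. Neither passed the test with all 9 arrays, whereas tnnc2.2 fell in both mutants without the TKO dark array.

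tnnt2c, a slow muscle troponin T, fell in both mutants, but in 1 of its 2 probes. Its level was -1.72, -1.85 and -1.63 in WT, -2.59, -2.48 and -2.75 in DKO and -2.54, -2.73 and -2.76 in TKO larvae. All 6 mutant arrays were below all 3 WT arrays, with differences of -0.87 (SE 0.111, adjusted p = 0.00499) and -0.94 (SE 0.111, adjusted p = 0.00388). One probe read -1.51, -1.94 and -1.45 in WT but -3.31, -3.22 and -3.79 in DKO and -2.92, -3.57 and -3.68 in TKO larvae, and its differences were -1.81 and -1.76 (adjusted p = 0.0033 and 0.0037). The other probe, of the same transcript accession, read between -2.15 and -1.71 on all 9 arrays and differed by 0.06 and -0.12 (adjusted p = 0.64 and 0.28).

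In the RefSeq annotation of the GRCz12tu assembly tnnt2c is the next protein-coding gene to zCry1a, one of the genes knocked out in both mutants. This was looked up after its values had been seen. The other members on a chromosome with a knocked-out gene were at least 96 protein-coding genes away. Of the 20 protein-coding genes nearest to zCry1a, 17 were tested; 2 were higher and 2, among them tnnt2c, lower in DKO than in WT larvae. In TKO larvae 2 of the 17 were higher and 4 lower. Either way these were 23.5% and 35.3% of the 17, beside 11.5% and 20.4% of all features. Near zPer2 0 of 6 genes tested passed in DKO and 2 of 6 in TKO larvae, and near zCry2a 1 of 13 in each. The part of this neighbourhood in the difference was not tested.

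**Figure D3:**
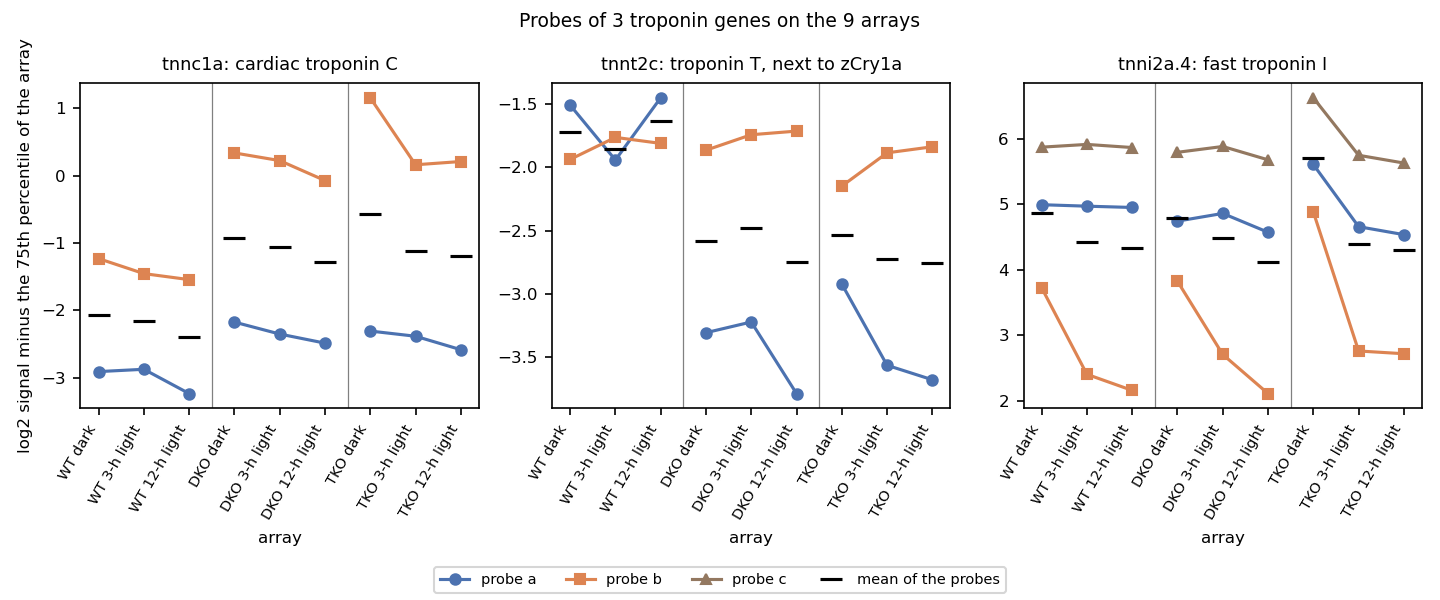
Log2 signal minus the 75th percentile of the array (y) of each probe (coloured lines, joined within a genotype) and of the gene (black bars, the mean of its probes) on the 9 arrays (x) for tnnc1a, tnnt2c and tnni2a.4; each point is 1 array. Both probes of tnnc1a are higher on the 6 mutant arrays, 1 of 2 tnnt2c probes is lower there and the other stays between -2.15 and -1.71, and 1 of 3 tnni2a.4 probes is lower on every lit array.

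Among heavy chains 4 of 7 fell in TKO against WT larvae, beside 11.5% of all features lower. They were myhz1.2 (log2 difference -0.64, SE 0.094, adjusted p = 0.00796), myhz1.1 (-0.42, adjusted p = 0.0236), the fast gene myhc4 (-0.38, adjusted p = 0.0398) and myh7 (-0.33, adjusted p = 0.0339). All 7 were below 0, with a median of -0.33 beside -0.06 for all features. Without the TKO dark array the same 4 genes passed the test, beside 11.4% of features lower, and 6 of 7 were below 0 with a median of -0.29. Of these calls only that of myhz1.2 held whichever array was left out: myh7 and myhc4 passed only without DKO dark or TKO dark (2 of 9 fits, adjusted p up to 0.154 and 0.139) and myhz1.1 also without DKO 3-h (3 of 9, adjusted p up to 0.104). On its brightest probe myhz1.1 differed by -0.13 (adjusted p = 0.278). In DKO against WT larvae 0 of 7 passed, beside 3.49% of features lower, and the median was -0.09, beside -0.01 for all features. tnnt2e, another slow troponin T, fell in TKO larvae (log2 difference -0.28, SE 0.075, adjusted p = 0.0435) and differed by -0.25 (adjusted p = 0.0914) in DKO larvae.

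The fast list was lower in both mutants by small amounts. All 17 fast members were below 0 in DKO against WT larvae, with a median of -0.15 (lowest -0.38), beside -0.01 for all features. The test was passed by 0 of 17, beside 3.49% of features lower. In TKO larvae 13 of 17 were below 0, with the same median, beside -0.06 for all features. There 3 of 17 passed (17.6%), beside 11.5% of features lower and 20.4% called either way. The TKO dark array decided the size of these counts. Without it, 5 of 17 fast members fell in DKO larvae, beside 9.46% of features lower, and 8 of 17 fell in TKO larvae, beside 11.4%. All 17 were then below 0 in TKO larvae too, with a median of -0.27. Members are not replicates of a genotype, and the DKO and TKO differences share the WT arrays and the WT slide.

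The fast members that fell in both mutants without the TKO dark array included both tnni2b copies, which encode fast troponin I. tnni2b.1 read 4.22, 3.95 and 3.90 in WT, 3.77, 3.62 and 3.55 in DKO and 4.50, 3.56 and 3.57 in TKO larvae. Apart from the TKO dark array, every mutant array of this gene was below every WT array, and the differences were -0.38 (SE 0.053, adjusted p = 0.0103) and -0.38 (SE 0.062, adjusted p = 0.0187). For tnni2b.2 they were -0.34 (adjusted p = 0.0116) and -0.34 (adjusted p = 0.0199). With all 9 arrays neither copy passed the test. tnnc2.2 and myhz1.2 also fell in both, with differences of -0.21 and -0.27 in DKO and -0.28 and -0.56 in TKO larvae. Under the other 3 scalings, without the TKO dark array, the fast medians were -0.16 to -0.12 in DKO and -0.27 to -0.17 in TKO larvae, and 15 to 17 of the 17 members were below 0.

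The slow list was below 0 in 10 of 11 genes in DKO larvae (median -0.13) and above 0 in 7 of 11 in TKO larvae (median 0.09). Unlike the fast and cardiac lists it holds no myosin heavy chain. The slow heavy chains smyhc1, smyhc2 and smyhc3 lack the prefix and were counted with the other contractile genes. They read 2.06, -0.39 and 3.13 on the TKO dark array, against 2.53, -0.23 and 3.39 on the WT dark array. Under all 3 lightings smyhc3 was higher in DKO than in WT larvae, at 3.66, 3.76 and 3.77 against 3.39, 3.62 and 3.46. smyhc2 was lower, at -0.31, -0.27 and -0.34 against -0.23, -0.15 and -0.29. smyhc1 read 2.61, 2.71 and 2.67 in DKO and 2.53, 2.79 and 2.72 in WT larvae. Without the TKO dark array 9 of 11 members of the slow list were below 0 in TKO larvae, with a median of -0.09. In that fit 4 of 11 slow members fell in DKO larvae (36.4%), beside 9.46% of features lower. This share was no smaller than that of the fast list (29.4%). In TKO larvae 2 of 11 slow members fell, beside 11.4% of features lower. The cardiac list was centred near 0 in DKO larvae (median 0.00, 5 of 10 above 0). Without the TKO dark array, where 13% of features were higher in DKO and 9.94% in TKO larvae, myl7 rose in both, by 0.34 (SE 0.052, adjusted p = 0.0127) and 0.38 (SE 0.061, adjusted p = 0.0181).

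**Figure D4:**
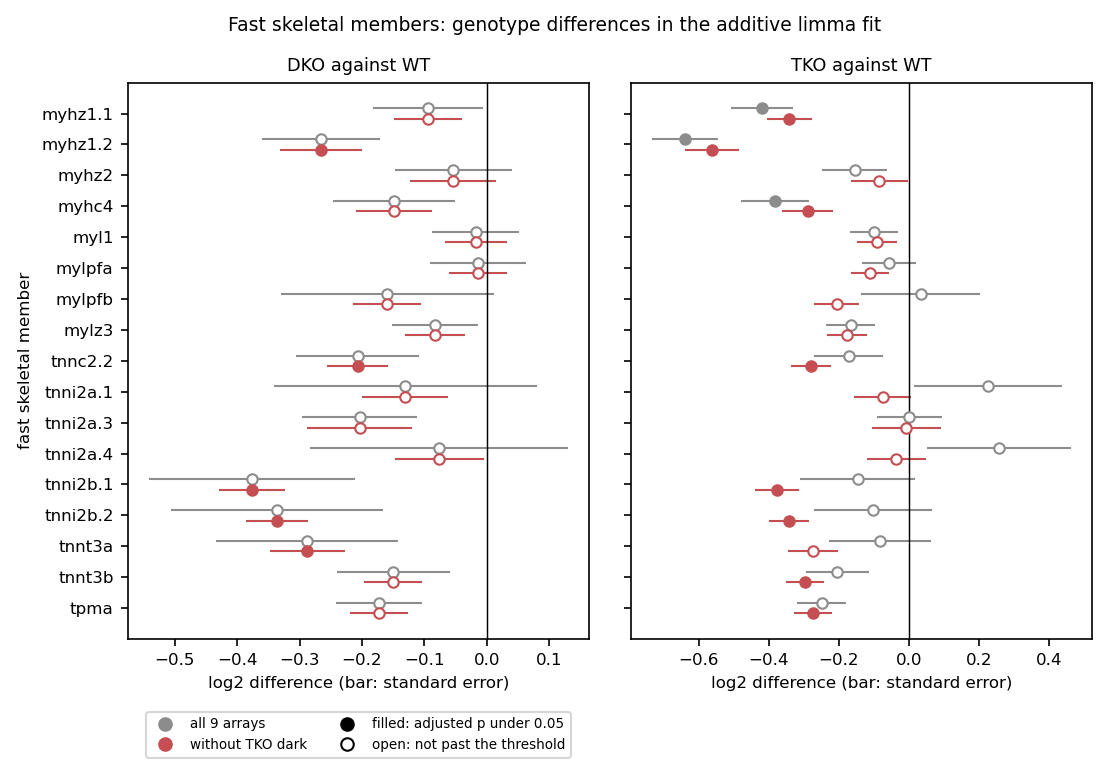
Log2 difference of each of the 17 fast skeletal members (y) from WT in DKO and in TKO larvae in the additive limma fit (x, bars are standard errors), with all 9 arrays (grey) and without the TKO dark array (red); filled points passed an adjusted p of 0.05. All DKO differences are below 0 in both fits, and in TKO larvae 13 of 17 are below 0 with all arrays and 17 of 17 without TKO dark.

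Light moved few members by much. In WT larvae 0 of 55 members reached 2-fold in any comparison of 2 lightings, beside 3.2% of features for 12-h light against darkness, 1.97% for 3-h light against darkness and 1.53% for 12-h against 3-h light. In DKO larvae 0 members did so either, beside 3.67%, 1.45% and 1.5%. In TKO larvae 1 member was at least 2-fold higher and 7 lower after 12-h light than in darkness, beside 3.25% and 6.28% of features, and 1 higher and 8 lower after 3-h light, beside 1.93% and 5.62%. The member higher after both was mylipa. Those lower after 12-h light were tnni2a.1, tnni2a.4, tnnc1b, tnni1c, tnni1d, tnni1b and myl6, each of which had its highest level on the TKO dark array. Between the 2 lit TKO arrays 0 of 55 members reached 2-fold, beside 1.06% of features.

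In the additive fit 4 members rose and 5 fell after 12-h light against darkness, beside 12.7% of features higher and 7.41% lower. The share of members called either way, 16.4%, lay near the 20.1% of all features. After 3-h light 1 member rose and 0 fell, beside 2.89% and 2.14% (5.03% either way). Between 12-h and 3-h light 0 members passed in limma, beside 0.224% of features higher and 0.277% either way, with 1 member (1.82%) at an unadjusted p under 0.05, beside 7.89% of features. With array weights 1 passed, beside 2.79% of features. Single arrays decided the 12-h count: it was 0 without the DKO 12-h or the TKO 12-h array, 14 without TKO dark and 1 to 5 without any other array. Features called either way moved too, to 2.51% without DKO 12-h, 4.8% without TKO 12-h and 22.8% without TKO dark, where the 14 members were 25.5%. For 3-h light mylipa passed with all arrays or without TKO dark, and not without any of the other 8.

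By role, the 7 heavy chain members were again on one side. myh7 and its close copy myh7l, both heavy chains of cardiac type, rose after 12-h light by 0.32 (SE 0.079, adjusted p = 0.0375) and 0.34 (SE 0.089, adjusted p = 0.0439). All 7 heavy chains were above 0, with a median of 0.30 beside 0.11 for all features. The same held after 3-h light (7 of 7, median 0.29 beside 0.11), and the median of 12-h against 3-h light was -0.004. For 12-h light the single comparisons gave medians of 0.31 in WT, 0.19 in DKO and 0.39 in TKO larvae, and 7 of 7 genes were above 0 in each. Without the TKO dark array the median was 0.17, beside 0.08 for all features, and myh7 alone passed the test. Of the 9 fits that left out 1 array, 1 kept the myh7 call (limma adjusted p up to 0.141) and 1 that of myh7l (up to 0.161). The slow heavy chains, which are not members, did not all rise. smyhc2 read -0.29 after 12-h light against -0.23 in darkness in WT, -0.34 against -0.31 in DKO and -0.41 against -0.39 in TKO larvae. smyhc1 and smyhc3 were higher after 12-h light than in darkness in each genotype.

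Troponin I lay on the other side. tnni2a.3, tnni2a.4 and tnni1d fell after 12-h light, with differences of -0.49 (SE 0.093, adjusted p = 0.0189), -0.87 (SE 0.206, adjusted p = 0.0341) and -0.74 (SE 0.197, adjusted p = 0.0459). All 11 genes were below 0, with a median of -0.49. The same held after 3-h light (11 of 11, median -0.38), and the median of 12-h against 3-h light was -0.10. After 12-h light the remaining roles also lay mostly below 0: troponin C in 3 of 3 genes (median -0.43) and tropomyosin in 6 of 6 (-0.11). Troponin T did so in 6 of 7 (-0.20) and the light chains in 7 of 9 (-0.19). Within WT and within DKO larvae the median was -0.28 each, with 8 of 11 below 0, and in TKO larvae -0.94, with 11 of 11. Without the TKO dark array the median was -0.26, 8 of 11 were below 0, and 5 passed the test, beside 9.37% of features lower: these 3 with tnni1b and tnni2b.1. The cardiac troponin C gene tnnc1a also fell (log2 difference -0.43, SE 0.104, adjusted p = 0.0359), and the difference was -0.32 (adjusted p = 0.0308) without the TKO dark array. Of the 9 fits that left out 1 array, 2 kept this tnnc1a call, and 4, 3 and 2 kept those of tnni2a.3, tnni2a.4 and tnni1d.

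**Figure D5:**
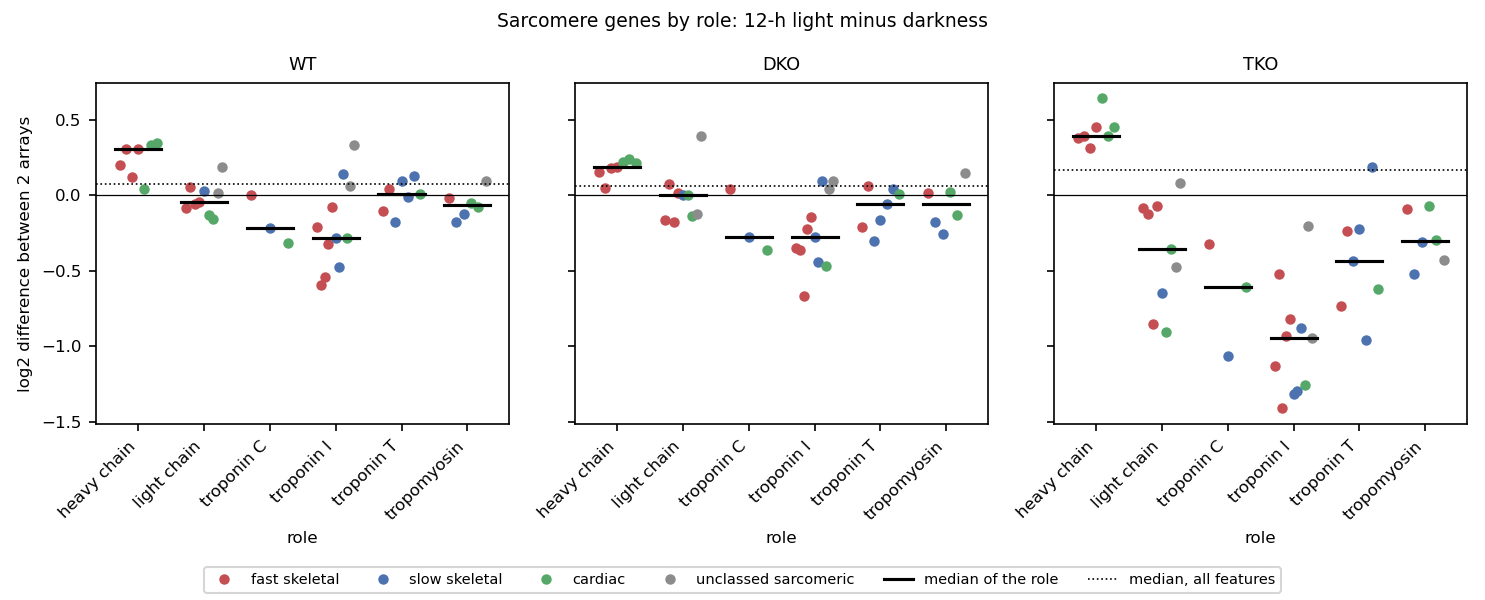
Log2 difference of 12-h light minus darkness (y) for each sarcomere member (points, 1 array each side, coloured by fibre class), by role (x), in WT, DKO and TKO larvae; the bar is the median of the role and the dotted line the median of all features. Heavy chains are above 0 in all 3 genotypes (medians 0.31, 0.19 and 0.39) and troponin I has the lowest median in each, at -0.28, -0.28 and -0.94. In DKO larvae the troponin C median is close to it, at -0.27.

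The value of tnni2a.4 rested on 1 of its 3 probes, which all match the same transcript accession. That probe read 3.73, 2.40 and 2.16 in WT, 3.82, 2.71 and 2.11 in DKO and 4.89, 2.76 and 2.72 in TKO larvae. It was lower on every lit array than on the dark array of its genotype, and its difference after 12-h light was -1.82 (SE 0.189, adjusted p = 0.0037) and after 3-h light -1.52 (adjusted p = 0.0181). The other 2 probes differed by -0.43 and -0.37 after 12-h light and neither passed the test (adjusted p = 0.19 and 0.23). In WT larvae they differed by -0.04 and -0.01, and in TKO larvae by -1.07 and -0.997. The tnni2 genes are close copies, so signal may be shared between them.

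Differences of the light response between genotypes were tested with an interaction model in which the 2 lit arrays of a genotype stood against its dark array. In limma 0 of 28126 features passed for any pair of genotypes (0% of features), and so 0 of 55 members. At an unadjusted p under 0.05 there were 0 members for DKO against WT, beside 1074 features (3.82%). For TKO against WT and for TKO set against DKO there were 26 members each (47.3%). Beside these were 6507 (23.1%) and 7035 features (25%). Both TKO comparisons rest on the TKO dark array, which stood apart. The lone dark array of a genotype is taken to vary like the lit ones there. In simulated data this model recovered 6 of 100 features with a 2-fold difference for TKO against WT and 85 of 100 with a 4-fold difference, so a 2-fold difference was mostly not detectable. With a trended and robust prior 15 members passed in the comparison of TKO with WT and 16 in that of TKO with DKO, beside 4.5% and 5.29% of features, and the lit-minus-dark difference was lower in TKO larvae for each.

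Some members that only share the prefix also rose after light. mylipa, a ubiquitin ligase that binds myosin regulatory light chain and, in mammals, the low-density lipoprotein receptor, rose after 3-h and 12-h light. It read 1.28, 1.78 and 1.87 in WT, 0.87, 1.61 and 1.80 in DKO and 0.51, 1.62 and 1.61 in TKO larvae. Every lit array was above every dark array, and the differences were 0.78 (SE 0.127, adjusted p = 0.0319) and 0.88 (SE 0.127, adjusted p = 0.0099), or 1.72-fold and 1.84-fold. mylk3, a cardiac myosin light chain kinase, rose after 12-h light by 0.58 (SE 0.107, adjusted p = 0.0179). It read -5.23, -4.97 and -4.58 in WT, -5.21, -5.30 and -4.86 in DKO and -5.48, -5.43 and -4.74 in TKO larvae, so the 12-h array was the highest in each genotype. With normexp background correction the difference was 0.12 (adjusted p = 0.119), and mylk3 passed in 5 of the 9 fits that left out 1 array, not without WT dark or any of the 12-h arrays.

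The other prefix-only members that passed were myl12.1 and mylipb. myl12.1, a non-muscle regulatory light chain, fell after 12-h light (log2 difference -0.42, SE 0.106, adjusted p = 0.0401) and passed in 1 of the 9 fits that left out 1 array. mylipb, the second copy of the ligase gene, rose in TKO against WT larvae by 0.56 (SE 0.154, adjusted p = 0.0487). This call held in 2 of the 9 fits that left out 1 array, and not without the TKO dark array. In the limma fit of single probes 1 of its 2 probes passed (0.78, adjusted p = 0.0196) and the other did not (0.34, adjusted p = 0.151). The gene read -3.68, -3.74 and -3.99 in WT, -3.51, -3.29 and -2.98 in DKO and -3.27, -3.29 and -3.17 in TKO larvae, and the WT arrays were the 3 lowest.

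Other genes of the muscle filament were counted in the same fit. Of 43 contractile genes tested out of 63 listed, 2 rose and 5 fell after 12-h light, 1 rose and 3 fell in DKO and 0 rose and 5 fell in TKO larvae. These were 16.3%, 9.3% and 11.6% of the list, beside 20.1%, 11.5% and 20.4% of all features called either way. casq1a, which stores calcium in the fast sarcoplasmic reticulum, fell after 12-h light (log2 difference -0.996, SE 0.123, adjusted p = 0.0068), and so did casq2 (-0.55, adjusted p = 0.0097). mybpc2a, a fast myosin-binding protein C, fell in both mutants, with differences of -0.55 in DKO (adjusted p = 0.0219) and -0.83 in TKO larvae (adjusted p = 0.0051), as did the Z-disc gene myoz2a, at -0.68 (adjusted p = 0.0167) and -0.84 (adjusted p = 0.0075).

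Of 5 genes for the folding of myosin, 1 rose in DKO and 2 in TKO larvae, and 0 fell. They made up 20% and 40% of the list, beside 11.5% and 20.4% of all features called either way. The median of the list was 0.19 in DKO and -0.11 in TKO larvae. hsp90aa1.1, the muscle Hsp90 chaperone of zebrafish, rose by 1.38 in DKO (SE 0.129, adjusted p = 0.0017) and 1.24 in TKO larvae (adjusted p = 0.0025). Its level was -0.58, -0.54 and -0.81 in WT, 0.94, 0.73 and 0.56 in DKO and 0.43, 0.72 and 0.65 in TKO larvae, with no overlap between WT and mutant arrays. Its partner unc45b, a myosin chaperone, rose by 0.73 in TKO larvae (adjusted p = 0.0336). Of 16 muscle transcription factors 1 rose and 2 fell in DKO and 2 rose and 4 fell in TKO larvae, or 18.8% and 37.5% of the list beside 11.5% and 20.4% of all features. sox6, which represses slow fibre genes in fast muscle, fell in both mutants, with differences of -0.82 (SE 0.138, adjusted p = 0.0142) and -0.97 (adjusted p = 0.0071).

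As a description of patterns over the 9 arrays, the features most like mylipa were aldh9a1a.1 and aldh9a1a.2, with Pearson's r of 0.994 and 0.993 among 28126 features. For tnni2a.4 they were the histone genes hist2h3c (0.998) and h3f3b.1 (0.996) and aprt (0.996). The 9 arrays share their genotype and lighting, and the high TKO dark value weighs on the latter group.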

How the data were processed

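Total RNA was labelled with Cy3 and hybridised to Agilent zebrafish arrays, and the submitters' processing notes name Agilent Feature Extraction, whose version in the file headers is 11.5.1.1. A different program is named for this step in the published methods, and the headers were followed. The deposited intensity of each spot is background-subtracted and detrended, without normalization between arrays. The deposited files also hold uncorrected median intensities and flags of 0 or 1 that mark a spot as clear of background, as saturated or as irregular. The deposited value table holds the same intensities multiplied by 1 constant per array, and how it was chosen is not stated.

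From log2 of the deposited intensity the array's 75th percentile (signals of 547 to 636) was subtracted. Control spots and 1 to 8 irregular spots per array were left out, and 0 spots were saturated. Between 85.9% and 89.8% of spots were well above background. Spots of a probe and then probes of a gene were averaged. Of 43603 probes, 26094 had a RefSeq symbol through their accession, and unnamed probes were kept singly. Features well above background on at least 1 array were tested with limma 3.58.1 in R 4.3.3 (4 residual degrees of freedom, 3 for the interaction) and Benjamini-Hochberg adjustment over all 28126. In simulated data the additive fit recovered 85 of 100 features with a 2-fold change for 12-h light and for TKO against WT. It recovered 76 of 100 for 3-h light and for DKO against WT. Each was 1 draw, so the gap does not rank the comparisons. Only 100 features were changed 2-fold and 100 changed 4-fold, far fewer than passed in the data for these comparisons, so recovery there may differ. Python 3.11.15, numpy 2.4.6, pandas 2.3.3 and matplotlib 3.10.9 made tables and plots.

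By the rule for naming, the text could name members of the fibre lists, members past the threshold of a contrast (up to 10 a direction), members at least 2-fold apart in a light comparison of single arrays, the 3 members with the largest SD over the arrays and, for the 2 members with the largest 12-h change, the 3 features most like each. Non-sarcomeric members, single probes and the place of tnnt2c beside zCry1a were named after their values were seen. The rule does not cover genes of the other muscle lists, and not all of those that passed are named. myl13 was first listed as fast and was left without a class, since its fibre type was not certain. The members and lists were chosen with earlier results of these data known. Alternatives were 3 other scalings, filters, probe rules, limma options and leaving out each array. The number of arrays limits the precision, and nothing in the sources gives a second sample of a condition.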

Additional observations from a re-analysis of the deposited data

Results flagged for a closer look

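Medians of the fast and of the cardiac class pointed one way in some genotypes and the opposite way in others, and these differences between genotypes were not tested. For fast members the median of 3-h light minus darkness was -0.0364 in WT, 0.0194 in DKO and -0.19 in TKO larvae. The median of 12-h light minus darkness was -0.0469, 0.0185 and -0.24. For cardiac members the 3-h medians were -0.0243, 0.0075 and -0.39 and the 12-h medians -0.0613, 0.0066 and -0.33. The TKO values share the TKO dark array, which stood apart. Spot error for a difference of 1 probe was 0.20 (SD).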

How the results depend on the processing

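No paired analysis was possible because each condition had 1 array and the labels give no replicate numbers, beyond the lighting term by which the additive fit already sets genotypes against each other within each lighting. Leaving out each array in turn gave 0 to 14 members called for 12-h light, 0 to 1 for 3-h light, 2 to 14 for DKO against WT and 3 to 13 for TKO against WT. Normexp background correction with quantile normalization called 16, 5, 4 and 15 members in these comparisons, and array weights called 18, 19, 11 and 18, with 1 for 12-h against 3-h light. Beside these, normexp called 21.6%, 9.06%, 15.4% and 24.7% of features and array weights 32.7%, 30.3%, 24.2%, 37.2% and 2.79%. Testing probes singly called 3 members for 3-h light, 8 for DKO and 13 for TKO. There a gene counted if any of its probes, up to 7, passed. The share over all features was not counted, so these counts cannot be set beside the others. For 3-h light the stricter filter called 2 members, beside 10.3% of features, and the trended, robust prior 3, beside 9.94%. The brightest probe called 1 for DKO, beside 12.7% of features, and the deposited scaling 5 for TKO, beside 16.7%. For the interactions of TKO with WT and with DKO, normexp called 11 and 14 members, beside 3.84% and 5.32% of features, and the trended, robust prior 15 and 16, beside 4.5% and 5.29%. With the brightest probe of each gene tnnt2c in DKO larvae was 0.0638 (adjusted p = 0.65), since that rule reads only the probe that did not differ. The cause of the other shifts was not tested.

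The troponin I median for TKO dark minus WT dark was 0.59 with quantile normalization and 0.60 with normexp as well, against 0.83, and without the TKO dark array its 12-h median was -0.26. The cardiac 3-h median ranged from -0.27 to 0.0176 when 1 array was left out. For single genes, 224 values kept their direction and call, 115 kept the direction but lost the call and 1 turned. The alternatives for role medians, and for fast medians without TKO dark, were chosen after seeing the data. tnnc1a in both mutants and myhz1.2 in TKO larvae passed under all alternatives run. Apart from these and tnnt2c, the calls of named members passed in 1 to 7 of the 9 fits that left out 1 array. Such fits are not given here for the named genes outside the members. Scaling moved the median of all features for TKO dark minus WT dark to between -0.22 and -0.03, from -0.11. With 1 array a condition, a difference near 0.20 was not detectable on single arrays.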
